A study of Mus musculus with 61 samples.

Results

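The 10 genes described here encode RNA-binding and RNA-handling proteins of germline messenger RNA storage: Ddx4, Dazl, Ybx2, Zar1, Cpeb1, Patl2, Lsm14b, Ddx6, Btg4 and Zfp36l2. They were taken by name from a table of 23927 gene rows, and all 10 had a row. The study profiled single oocytes and single granulosa cells, the somatic cells that surround the oocyte in the follicle, by full-length single-cell RNA sequencing. The cells came from ovaries of wild-type CD-1 mice, an outbred strain, at postnatal day 5. Animals had received either solvent or doxorubicin, an anthracycline chemotherapy drug that intercalates into DNA and poisons topoisomerase, by intraperitoneal injection 6 h before collection. The series text gives the amount as 10 mg/kb; because no such dose unit exists, the amount given remains uncertain. The solvent group held 16 oocytes and 16 granulosa cells, and the doxorubicin group 16 oocytes and 13 granulosa cells. All cells carried 1 batch label. No animal or culture was named, so each group stands for 1 sample: cells describe the spread within a group, no test of a difference between groups was possible, and intervals cover counting error only. The reads were amplified copies without molecular identifiers and are not independent molecules.

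Growing and resting oocytes make far more messenger RNA than they translate at once. Much of it is held in a silent form by RNA-binding proteins that coat the transcripts, keep their poly(A) tails short and block the cap, until meiotic maturation, when polyadenylation switches some messages on and deadenylation begins to clear the rest. The genes fall into germ cell RNA regulators (Ddx4, Dazl), packaging and storage proteins (Ybx2, Zar1), the polyadenylation switch (Cpeb1), proteins of silent ribonucleoprotein particles (Patl2, Lsm14b, Ddx6), and factors that recruit the deadenylase (Btg4, Zfp36l2).

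In the GENCODE M21 annotation of GRCm38, the build that matches the mm10 named in the submitters' processing notes, all 10 are protein-coding. Ddx4 spans chr13:112598333-112652475, Dazl chr17:50279395-50293636, Ybx2 chr11:69935796-69941605, Zar1 chr5:72576806-72581254 and Cpeb1 chr7:81347026-81455465. Patl2 spans chr2:122120108-122186189, Lsm14b chr2:180024987-180035465, Ddx6 chr9:44604892-44640731, Btg4 chr9:51060901-51119875 and Zfp36l2 chr17:84183931-84187947. Whether counting used strand is not given in the sources used here, and reads of overlapping genes on opposite strands cannot be told apart without it. This touches Patl2, which overlaps B2m and Trim69, and Btg4, which overlaps Layn and 4833427G06Rik. A pseudogene, Rpl7a-ps9, lies opposite Cpeb1, and Ddx6 shares its strand with the unclassified transcripts E030022I16Rik and Gm47234.

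RefSeq promoters on GRCm38.p6 were matched by symbol for 8 of the 10 genes, all but Ddx6 and Zfp36l2, with 9 start sites in all because Ybx2 has more than 1. The 250 bases before the start site are shown for Ddx4, Zar1 and Btg4, which stood at different places in the granulosa libraries described further on. Sequences run 5′ to 3′ on the gene's strand, and capitals mark matches to the E-box CANNTG. The intervals are chr13:112652311-112652560 on the minus strand for Ddx4, chr5:72581085-72581334 on the minus strand for Zar1 and chr9:51115751-51116000 on the plus strand for Btg4. These RefSeq start sites lie inside the GENCODE spans given above, and that of Btg4 lies far from its span's start at 51060901.
Ddx4: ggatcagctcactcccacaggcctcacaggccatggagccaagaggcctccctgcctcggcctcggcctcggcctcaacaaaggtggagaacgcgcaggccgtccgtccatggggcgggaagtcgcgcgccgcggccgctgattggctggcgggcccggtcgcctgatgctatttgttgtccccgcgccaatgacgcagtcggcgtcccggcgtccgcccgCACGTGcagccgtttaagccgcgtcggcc
Zar1: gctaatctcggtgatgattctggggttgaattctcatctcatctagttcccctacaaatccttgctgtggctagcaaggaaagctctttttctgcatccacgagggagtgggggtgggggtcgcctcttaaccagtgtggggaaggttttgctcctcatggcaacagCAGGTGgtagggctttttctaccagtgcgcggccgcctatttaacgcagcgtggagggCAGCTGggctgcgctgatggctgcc
Btg4: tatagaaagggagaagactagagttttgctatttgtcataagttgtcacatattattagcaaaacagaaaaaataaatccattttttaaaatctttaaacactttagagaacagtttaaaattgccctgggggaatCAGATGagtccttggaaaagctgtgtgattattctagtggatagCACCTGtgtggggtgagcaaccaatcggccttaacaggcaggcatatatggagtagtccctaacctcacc
The Ddx4 window of 300 bases around the start site was 72% G or C with 38 CG pairs, the Zar1 window 58.7% with 17 and the Btg4 window 39% with 1. Matches to CANNTG, searched on both strands, began at offset -29 in Ddx4, at -83 and -25 in Zar1, and at -114 and -70 in Btg4, with the start site as offset 0. All 8 genes had at least 1 match, beside 72.3% of 32851 promoters of the same length. None of the 8 held TAATTG or TAATTA, which 8.0% and 5.29% of promoters hold, and Cpeb1 alone held TATAAA, found in 13.6%. Such a match is a run of letters and is not evidence of a bound site.

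The 61 libraries held between 6834594 and 31262609 counts, and the group medians were 10941952 and 11012307 for oocytes of the control and doxorubicin groups and 11478173 and 10826423 for their granulosa cells. The labelled cell types were checked against fixed markers. The summed level of 18 oocyte markers (Gdf9, Zp3, Padi6 and others) was 25190 to 60427 CPM (counts scaled to a total of 1000000 per library or group) in control oocytes and 17744 to 66355 CPM in doxorubicin oocytes. It was 474 to 17820 CPM in control granulosa cells and 395 to 47810 CPM in doxorubicin granulosa cells, with medians of 1901 and 10537 CPM. Of the 18, only Oosp1 was under the floor of 3 counts in control granulosa cells, and after doxorubicin none was. The granulosa marker sum, which Inha leads, was 241 to 13970 CPM in control and 773 to 10873 CPM in doxorubicin granulosa cells. Oocyte markers outweighed granulosa markers in 6 of 16 control and 8 of 13 doxorubicin granulosa libraries, so these libraries stand apart from their label. Granulosa ratios of the genes that reached 5 CPM are given with and without them. Below, led by granulosa or by oocyte markers compares these lists only. Stroma markers were higher than both in control libraries 2, 13 and 16, left out by this rule (8342, 13316 and 4384 CPM). They were also higher than both in doxorubicin library 13, which was kept (7961 CPM). Blood markers were highest in doxorubicin library 15, also kept (33378 CPM). In oocytes, granulosa markers reached 200 CPM or more in 6 control and 5 doxorubicin libraries. Summed over each group they reached 179 CPM without the drug and 527 CPM with it, and the highest single oocytes held 798 and 3080 CPM. Of 11 tested granulosa markers 6 were at least 2-fold higher in doxorubicin oocytes and 0 lower, with a median log2 ratio of 1.86.

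Control oocytes carried the transcripts of most of these genes at levels far above control granulosa cells. A level is the group's summed counts of a gene scaled to CPM by its summed total, and a gene was counted when it reached 5 CPM in either group and the group levels lay at least 2-fold apart. Of the 9 genes that reached 5 CPM, 7 were at least 2-fold higher in oocytes and 1, Zfp36l2, was lower, where 29% of 12373 genes were higher and 31.3% lower, 60.3% in either direction. The median log2 ratio was 4.05, beside -0.03 over all genes tested. Every control oocyte lay above every control granulosa cell for Ddx4, Dazl and Cpeb1, a pattern seen in 3.25% of genes, and the reverse, seen in 0.453%, held for 0 of the 9.

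**Figure D1:**
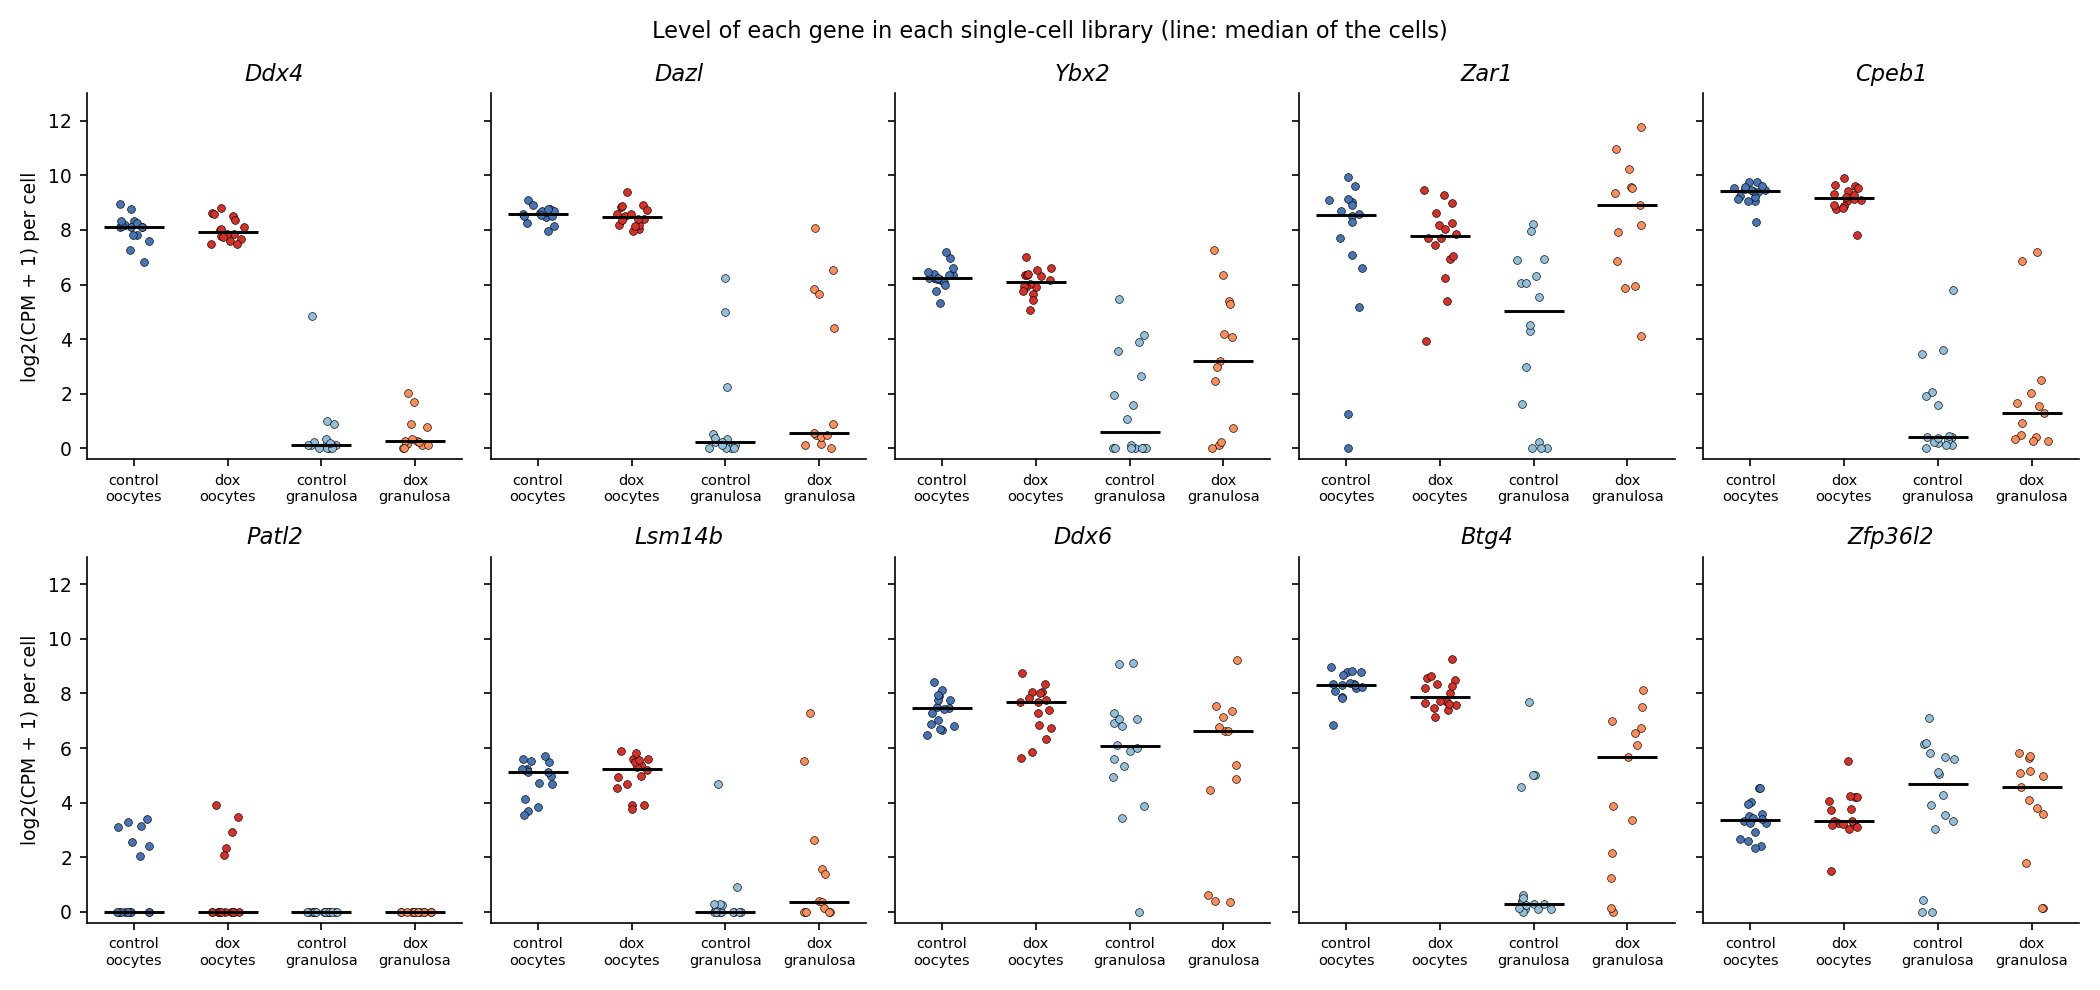
Level of each gene as log2(CPM + 1) in each of the 61 libraries, 1 point per cell, with a line at the group's median. Ddx4, Dazl and Cpeb1 form tight bands in oocytes, whereas Zar1 spreads from 0 to 974 CPM in control oocytes and reaches 3523 CPM in doxorubicin granulosa cells.

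Ddx4, the germ cell DEAD-box helicase known as vasa, was measured at 112 CPM in the lowest control oocyte, 277 CPM at the median and 497 CPM in the highest. In control granulosa cells it was 0, 0.0863 and 28.0 CPM. The groups did not overlap, and library 8 alone held 91.4% of the granulosa counts. Oocytes over granulosa cells gave a log2 ratio of 7.12 (95% counting interval 6.97 to 7.28), and 10.56 without that library. At least 5 reads were present in 16 of 16 control oocytes and in 3 of 16 control granulosa cells. With every cell thinned to 1000000 counts these were 16 and 1.

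Dazl, which binds germ cell messages and promotes their translation, ranged from 250.03 to 553 CPM in control oocytes with a median of 387 CPM. Its coefficient of variation over these cells, 0.188, was the smallest of the 10 genes. In control granulosa cells it ranged from 0 to 73.7 CPM with a median of 0.168 CPM. The groups did not overlap. Its log2 ratio was 5.73 (5.65 to 5.81), and 7.11 without granulosa library 8, which held 64.1% of that group's Dazl counts.

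Ybx2, the cold-shock domain protein also called MSY2 that packages stored messages, lay between 38.8 and 146 CPM in control oocytes, with a median of 74.9 CPM. Control granulosa cells lay between 0 and 43.5 CPM with a median of 0.590 CPM. Of the oocytes, 15 of 16 were above the highest granulosa cell, library 9. The log2 ratio was 3.71 (3.62 to 3.80), and 4.43 without library 9.

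Zar1, named for the arrest of zygotes that lack it and known to hold stored messages in the oocyte cytoplasm, was, other than Patl2, the least even of the genes over control oocytes (coefficient of variation 0.772). Control oocytes ran from 0 to 974 CPM with a median of 372 CPM, and libraries 13 and 8 held 0 and 1.42 CPM. Control granulosa cells ran from 0 to 296 CPM with a median of 33.8 CPM. The groups overlapped, with 10 of 16 oocytes above the highest granulosa cell. The log2 ratio of 2.50 (2.48 to 2.53) was the smallest of the 7 higher genes. At least 5 reads were found in 15 of 16 control oocytes (93.8%, exact binomial interval 69.8 to 99.8%) and in 12 of 16 control granulosa cells (75%, 47.6 to 92.7%). After thinning the shares were 87.5% and 68.8%.

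Cpeb1, which binds the cytoplasmic polyadenylation element and switches between repression and polyadenylation, ran from 316 to 869.6 CPM in control oocytes with a median of 693 CPM. In control granulosa cells it ran from 0 to 54.3 CPM with a median of 0.324 CPM. No oocyte overlapped a granulosa cell. This corresponds to a log2 ratio of 6.98 (6.89 to 7.08), and 8.26 without granulosa library 11, the highest.

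Among the particle proteins, Patl2, an oocyte relative of the decapping activator Pat1, was the scarcest. It reached 2.61 CPM in control oocytes, was present with 38 to 114 reads in 7 of 16 cells and had no read in the other 9. None of the 29 granulosa libraries held a read. With control granulosa cells set to the floor of 3 counts over the group, 0.0167 CPM, control oocytes were 156-fold higher. On the log2 scale this is 7.29, with a counting interval of 5.73 to 9.57. The exact Poisson interval of the control granulosa level reached 0.0205 CPM. Patl2 stayed under 5 CPM in both groups and was not counted. At 0 of 16 control granulosa cells, the exact binomial interval of the share of cells with 5 reads reaches 20.6%. The share in control oocytes was 43.8% (19.8 to 70.1%), or 37.5% after thinning.

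Lsm14b, a member of the RAP55 family of translational repressors, ran from 10.8 to 51.6 CPM in control oocytes with a median of 34.0 CPM. Control granulosa cells ran from 0 to 24.9 CPM with a median of 0 CPM, and library 6 held 94.1% of the counts. The groups overlapped only through that library. The log2 ratio was 4.05 (3.89 to 4.2), and 8.01 without library 6.

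Ddx6, the DEAD-box helicase of P-bodies found in most cell types, was the gene of the set closest to equal in both cell types. Control oocytes ran from 89.1 to 338 CPM with a median of 174 CPM. Control granulosa cells ran from 0 to 548 CPM with a median of 65.8 CPM. The groups overlapped throughout, and no oocyte stood above the highest granulosa cell. Its log2 ratio was 0.37 (0.35 to 0.40). It passed 2-fold, at 1.06, when the 6 granulosa libraries in which oocyte markers outweighed granulosa markers were left out, and at 1.39 when the cells' medians of log2(CPM + 1) were compared.

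The deadenylase adaptors lay on opposite sides. Btg4, which brings the CCR4-NOT deadenylase to maternal messages at meiotic maturation, ran from 115 to 501 CPM in control oocytes with a median of 320.5 CPM, and from 0 to 205 CPM in control granulosa cells with a median of 0.235 CPM. Its log2 ratio was 4.22 (4.17 to 4.27), and 5.87 without granulosa library 8, the 1 library that reached into the oocyte range. Zfp36l2, a zinc finger protein that binds AU-rich elements and promotes decay, was 4.03 to 22.5 CPM in control oocytes and 0 to 138 CPM in control granulosa cells, with medians of 9.27 and 25.5 CPM. The groups overlapped, and the log2 ratio was -1.75 (-1.82 to -1.68).

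Against the 10 control granulosa libraries led by granulosa markers, all 9 genes that reached 5 CPM were at least 2-fold apart. The share over all genes was not computed for this subset. With all control granulosa libraries it was 60.3%. The ratios on the log2 scale were then 10.16 for Ddx4, 6.53 for Dazl, 3.14 for Ybx2, 3.0 for Zar1, 6.35 for Cpeb1, 3.36 for Lsm14b, 1.06 for Ddx6, 6.06 for Btg4 and -1.98 for Zfp36l2. Those of Ybx2, Cpeb1 and Lsm14b were smaller than with all libraries, and the other 6 were larger in size.

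Levels of different genes were compared per kilobase of the longest coding transcript. In control oocytes Zar1 stood at 265 CPM per kb, Btg4 at 229.5 and Cpeb1 at 217. These 3 neighbours differed by less than the larger SD over cells of each pair (196 CPM per kb for Zar1, 67.0 for Btg4). Dazl followed at 129 CPM per kb, Ddx4 at 89.2, Ybx2 at 48.1, Ddx6 at 28.9, Lsm14b at 12.6, Zfp36l2 at 3.11 and Patl2 at 1.07, and each of these steps exceeded the larger SD of its pair. In doxorubicin oocytes Cpeb1 at 193 CPM per kb, Zar1 at 189.6 and Btg4 at 183 stood in another order, within their SD. In control granulosa cells Zar1 led at 46.7 CPM per kb, followed by Ddx6 at 22.4 and Btg4 at 12.4, and no neighbouring pair was separated by more than its larger SD.

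The rest of the machinery was read from fixed lists, beside the 29% of genes higher and 31.3% lower in control oocytes. Of 16 decapping and P-body genes, 6 were at least 2-fold higher in control oocytes and 0 lower, with a median log2 ratio of 0.76. Dcp1a, a decapping cofactor, had a log2 ratio of 3.26, Eif4enif1, the eIF4E transporter that represses capped messages, 2.30, Lsm5 1.53 and Lsm3 1.34. Of 19 deadenylation genes 8 were higher and 4 lower, with a median of 0.72. The higher ones included Cnot11 at 2.92, Cnot3 at 2.60, Cnot4 at 2.01 and Pan3 at 1.60. The lower ones were all BTG/TOB relatives of Btg4, namely Btg2 at -3.79, Btg1 at -2.44, Tob1 at -1.58 and Tob2 at -1.14. Btg3, a further relative in the list, was not among them.

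Of 13 tested genes of cytoplasmic polyadenylation 3 were higher and 1 lower. Tent5b, a poly(A) polymerase, had a log2 ratio of 8.29 and Parn, a poly(A)-specific ribonuclease, 1.83. Cpeb3 had no read in control granulosa cells and was 11.17 higher on the log2 scale with that group set to the floor of 3 counts. Cpeb2, its relative, stood at -1.80. Of 11 cap and poly(A) binding genes 2 were higher, Pabpc4 at 3.62 and Paip2b at 2.10, and 2 lower, Pabpn1 at -1.75 and Eif4ebp2 at -1.50. Of 28 other RNA-binding protein genes 13 were higher, led by Elavl2 at 7.26, Caprin2 at 4.31, Rbpms2 at 4.15 and Igf2bp3 at 3.87, and 6 were lower, led by Zfp36l1 at -4.57, Zfp36 at -4.44, Msi2 at -3.65 and Elavl1 at -2.03. The 3 relatives of the TTP family, Zfp36, Zfp36l1 and Zfp36l2, were thus all lower in control oocytes. Of 12 stored or translationally controlled messages 9 were higher and 0 lower, with a median of 1.96. Sycp1 had a log2 ratio of 3.05 and Sycp3 2.79. The values of Wee2 (11.45) and Tex19.1 (12.28, 95% counting interval 10.73 to 14.56) rest on 8 and 3 granulosa counts.

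In oocytes 6 h after injection, none of the 9 genes that reached 5 CPM lay 2-fold apart between treatments. Of 11119 genes tested, 6.3% were at least 2-fold higher and 2.45% lower, 8.75% in either direction. Over so few genes a count of 0 does not set the list apart from that share. The median log2 ratio was -0.02, beside 0.01 over all genes tested. The widest difference was that of Zar1, at -0.48, or -0.75 between the cells' medians of log2(CPM + 1). No test could be made over 1 sample a group.

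**Figure D2:**
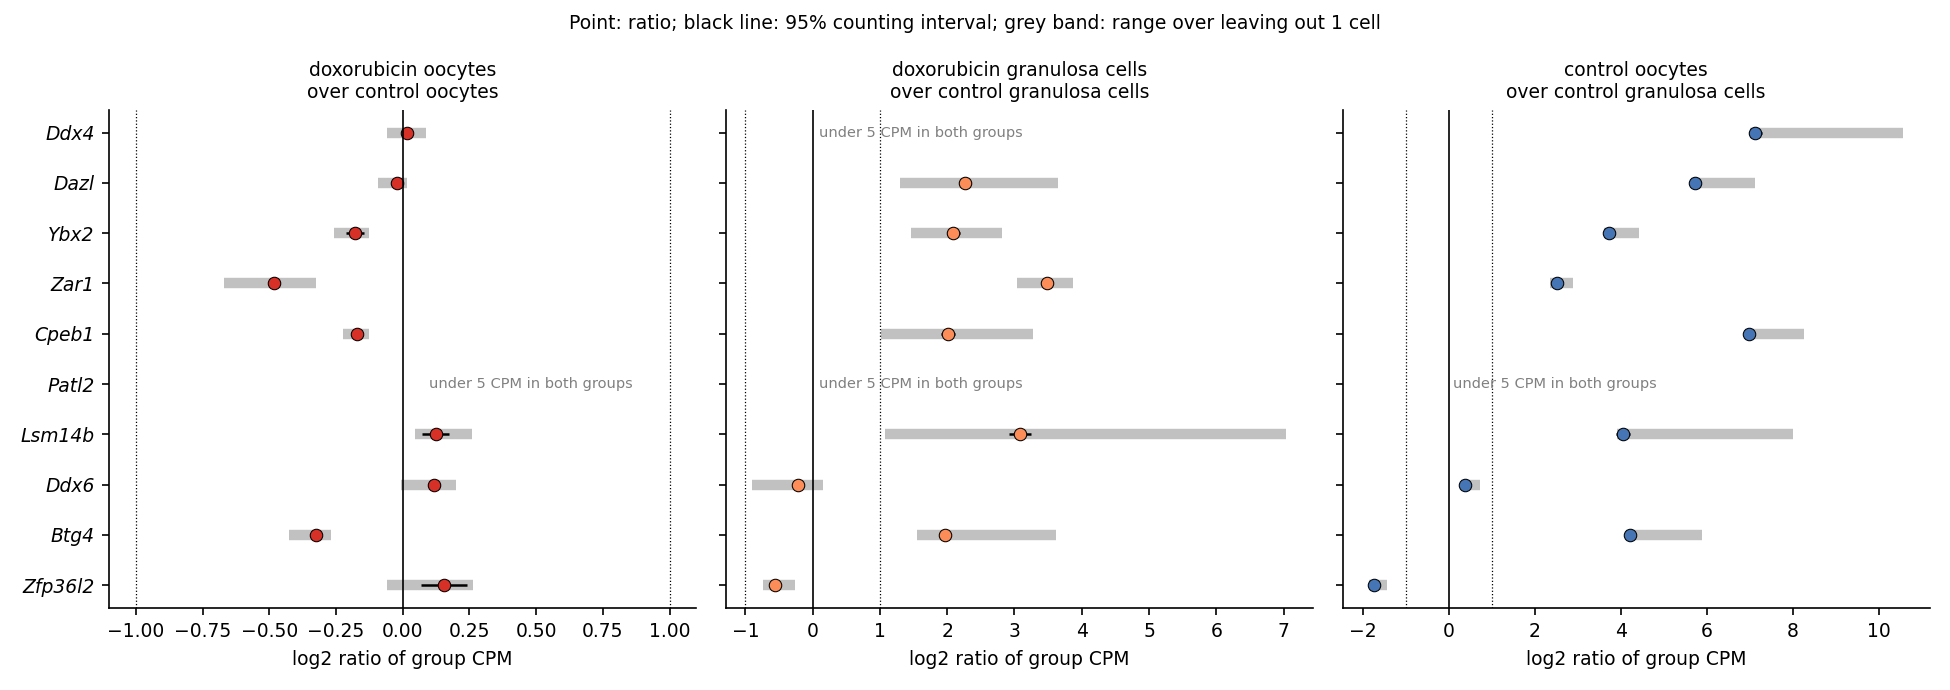
Log2 ratio of group CPM for each gene in the 3 comparisons, with the 95% counting interval as a black line, the range over leaving out 1 cell at a time as a grey band and dotted lines at 2-fold. In oocytes all points lie between -0.48 and 0.16, whereas 6 genes lie past 2-fold higher in doxorubicin granulosa cells with wide grey bands.

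Ddx4 ran from 177 to 448 CPM in doxorubicin oocytes with a median of 244 CPM, inside the control range of 112 to 497 CPM. Its log2 ratio was 0.01 (-0.00 to 0.03) and took either sign over leaving out single cells (-0.06 to 0.09). Dazl ran from 251 to 675 CPM with a median of 352 CPM, and 1 cell exceeded the highest control. Its log2 ratio was -0.02 (-0.03 to -0.00), and -0.09 to 0.02 over leaving out single cells.

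The storage proteins were lower in doxorubicin oocytes by amounts within the cells' range. Ybx2 ran from 32.6 to 128 CPM with a median of 67.5 CPM, with 1 cell below the lowest control, and its log2 ratio was -0.18 (-0.21 to -0.14). Zar1 ran from 14.4 to 699 CPM with a median of 220.5 CPM. All 16 doxorubicin cells lay inside the control range. The log2 ratio was -0.48 (-0.50 to -0.46) and stayed between -0.67 and -0.32 over leaving out single cells. Between the cells' medians of log2(CPM + 1) it was -0.75. Oocyte markers as a list were lower alongside it: 12 of 17 tested lay below 0, with a median of -0.31 and Bmp15, the lowest, at -1.41. Per 1000 oocyte marker counts the median cell held 8.37 Zar1 counts in control and 6.21 in doxorubicin oocytes. The part of the markers in the Zar1 value was not tested.

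Cpeb1 ran from 223 to 960.2 CPM with a median of 579 CPM, 1 cell above and 1 below the control range, and its log2 ratio was -0.17 (-0.18 to -0.16). Per 1000 oocyte marker counts its medians were 15.8 in control and 15.5 in doxorubicin oocytes. Btg4 ran from 141 to 609 CPM with a median of 234 CPM, and its log2 ratio was -0.32 (-0.34 to -0.31), between -0.43 and -0.27 over leaving out single cells. Per 1000 oocyte marker counts its medians were 7.31 and 7.34.

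The particle proteins were slightly higher. Lsm14b ran from 12.7 to 58.7 CPM with a median of 36.8 CPM, 2 cells above the control range, and its log2 ratio was 0.12 (0.07 to 0.17), or 0.55 without the oocytes that reached 200 CPM of granulosa markers. Ddx6 ran from 49.2 to 425 CPM with a median of 205 CPM. Of the doxorubicin cells 3 lay below and 1 above the control range, and the log2 ratio of 0.12 (0.10 to 0.14) was -0.01 without doxorubicin oocyte 12. Zfp36l2 ran from 1.86 to 44.6 CPM with a median of 9.0 CPM, and its log2 ratio of 0.16 (0.07 to 0.24) was -0.06 without doxorubicin oocyte 9. Doxorubicin oocytes 9, 11 and 12 had granulosa marker sums of 3080, 2782 and 2071 CPM and held 44.6, 17.5 and 8.27 CPM of Zfp36l2, the last below the group median. Without the oocytes that reached 200 CPM of granulosa markers the ratio was -0.05. Patl2 had 36 to 188 reads in 5 of 16 doxorubicin oocytes and 0 in the other 11, at 2.66 CPM beside 2.61 CPM in controls. It was under 5 CPM in both groups and gets no ratio.

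Per 1000 counts of the oocyte markers, which as a list were lower in doxorubicin oocytes, the remaining 6 genes had higher medians than in controls. The control and doxorubicin medians on that scale were 5.97 and 7.75 for Ddx4, 8.18 and 10.5 for Dazl, 1.57 and 1.79 for Ybx2, and 0.727 and 0.906 for Lsm14b. They were 3.67 and 5.99 for Ddx6 and 0.196 and 0.319 for Zfp36l2. By CPM the medians of Ddx4, Dazl, Ybx2 and Zfp36l2 were lower in doxorubicin oocytes.

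The lists around the set held few genes past 2-fold between oocyte groups, beside 8.75% of all genes tested. Over 98 tested genes of polyadenylation, deadenylation, decapping, cap and poly(A) binding, other RNA-binding proteins and stored messages, only Zfp36l1 passed 2-fold, at 1.18 (18.3 against 8.07 CPM). Zfp36l1 was lower in oocytes than in granulosa cells. Granulosa markers were higher in the sum over doxorubicin oocytes, with Inha at 354 against 97.7 CPM. The cells' medians of the granulosa marker sum were 86.0 CPM in doxorubicin and 80.6 CPM in control oocytes, and those of Zfp36l1 10.4 and 3.63 CPM. The part of the granulosa markers in the Zfp36l1 value was not tested. List medians were -0.06, -0.15, 0.07, 0.15, -0.00 and -0.16 in that order. Of the 12 stored messages 10 were lower in doxorubicin oocytes, where 48.9% of all genes were lower, and 0 passed 2-fold. Mos, the meiotic kinase, was lowest at -0.68 and Sycp3, a synaptonemal complex protein, highest at 0.41; both are named after their values were seen.

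Over single oocytes the 10 genes did not vary as a block. Among 45 pairs, Spearman's rho of log2(CPM + 1) ran from -0.61 to 0.49 over the 16 control oocytes and from -0.68 to 0.54 over the 16 doxorubicin oocytes. An absolute rho over 0.5 was reached by 3 pairs in controls (Ddx6 with Zfp36l2 at -0.61, Ybx2 with Btg4 at -0.60, Zar1 with Ddx6 at -0.57) and by 4 in doxorubicin oocytes, and 0 pairs passed in both. The sign was the same in both groups for 27 of 45 pairs. These cells share a preparation and a batch label, and CPM values within a cell share its total.

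**Figure D3:**
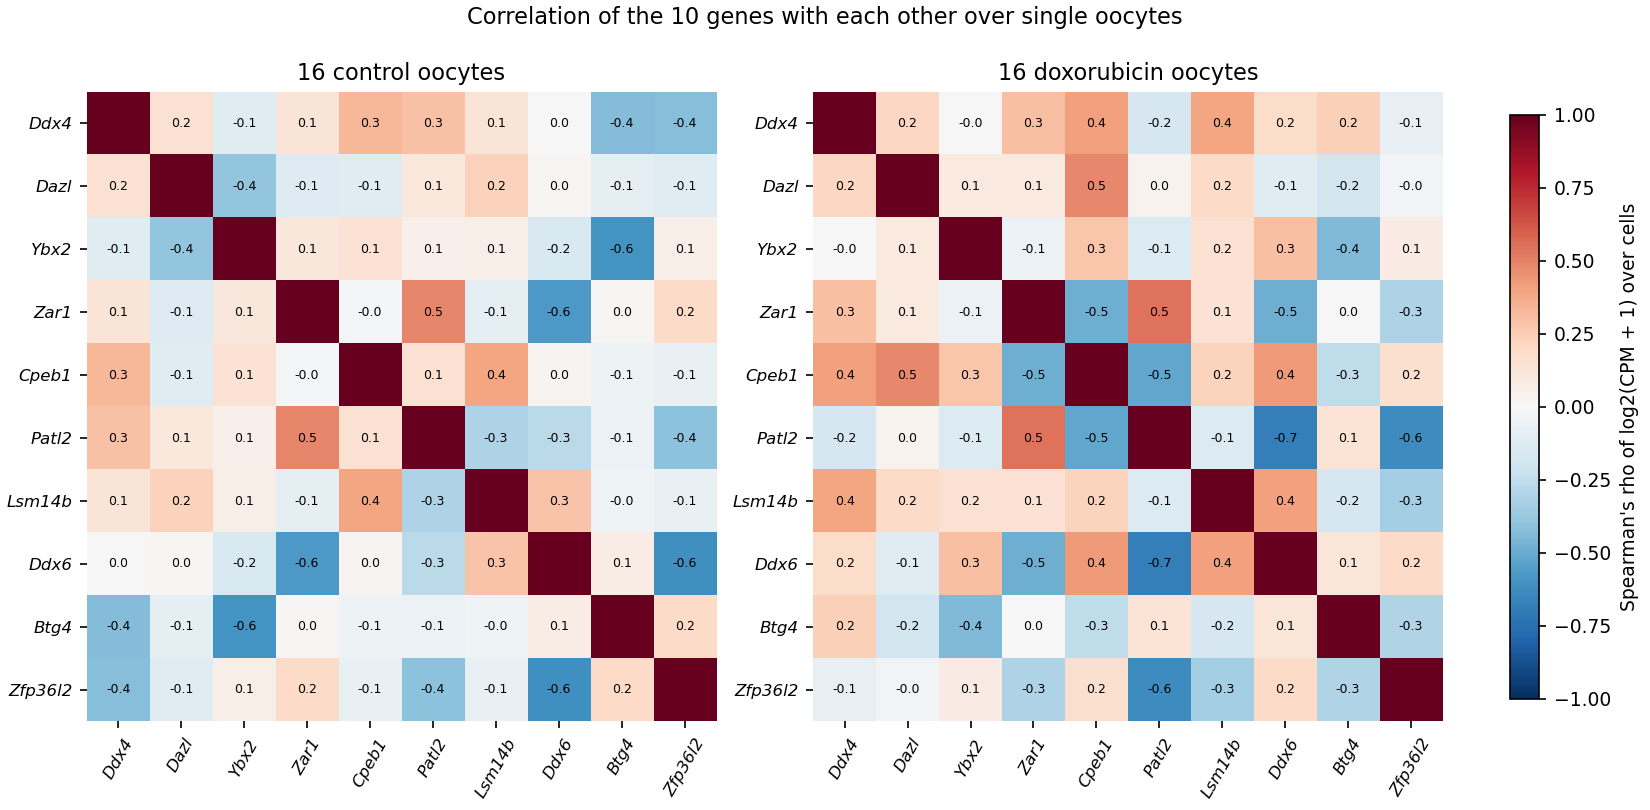
Spearman's rho between each pair of genes over the 16 control oocytes (left) and the 16 doxorubicin oocytes (right), from blue at -1 to red at 1. Values lie between -0.61 and 0.49 in controls and between -0.68 and 0.54 in doxorubicin oocytes, and no pair passes 0.5 in both.

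The genes closest in pattern were sought among 4583 genes with at least 50 CPM. Over control oocytes the nearest to Zar1 were Nudt5 (rho 0.86), Dnajb6 (0.85) and Hsp90b1 (0.83), with 0.50, 0.54 and 0.39 over doxorubicin oocytes. The nearest to Ybx2 were Mprip (0.89), Fyn (0.86) and Strn4 (0.85), with 0.49, 0.42 and 0.52. The nearest to Ddx6 were Kif14 (0.95), Lsg1 (0.87) and Col6a5 (0.86), with 0.33, -0.02 and 0.01. The nearest to Dazl were Cox14 (0.82), Ssu72 (0.81) and Stx8 (0.74), with 0.14, -0.20 and -0.05. As the highest of 4583 values over 16 cells, those of controls are selected for size, and the doxorubicin values are the ones not so chosen.

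In granulosa libraries 6 of the 8 genes that reached 5 CPM were at least 2-fold higher after doxorubicin and 0 lower, where 20.6% of 12194 genes were higher and 20% lower, 40.6% in either direction. The median log2 ratio was 2.05, beside -0.03 over all genes. The 17 tested oocyte markers were higher too, all 17 past 2-fold with a median of 2.0, from the sums of 474 to 17820 and 395 to 47810 CPM given above. With only the 10 control and 5 doxorubicin libraries in which granulosa markers outweighed oocyte markers, the median of the set was -0.01. There Dazl, Zar1 and Btg4 were past 2-fold higher and Cpeb1 past 2-fold lower, and the share over all genes was not computed. Among the 5 doxorubicin libraries kept, library 8 held the most counts of Dazl (650), Zar1 (3778) and Btg4 (666). The next highest counts were 194, 1411 and 132. For Cpeb1, control library 11 held 588 counts and the next highest kept control library 149. Leaving out single libraries was not run within this subset. Other marker lists differed too. Stroma markers were lower over all libraries, 4 of 8 past 2-fold with a median of -1.42 (sums of 1.31 to 13316 CPM in control and 0.375 to 7961 CPM in doxorubicin cells). Blood markers were higher, with Hba-a1 at 6.32 (sums of 0 to 437 and 3.98 to 33378 CPM, the highest in library 15). The part of these lists in the ratios of the 10 genes was not tested.

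**Figure D4:**
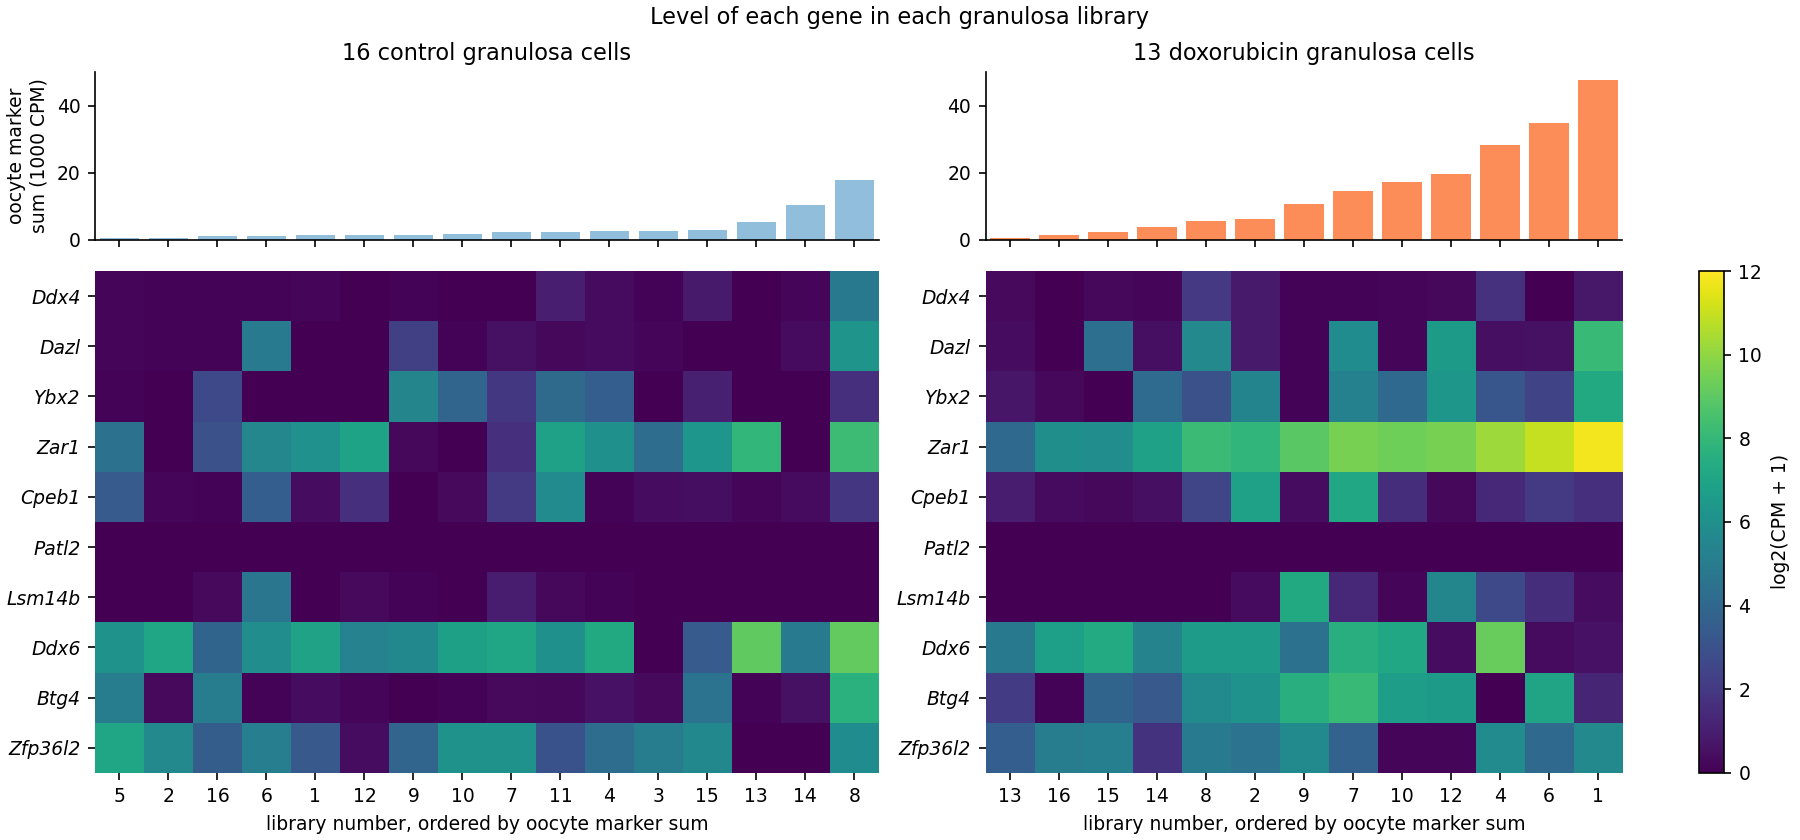
Level of each gene as log2(CPM + 1) (colour) in each granulosa library, with libraries ordered by their summed oocyte markers (bars, in 1000 CPM). Zar1 brightens with the bars in the doxorubicin libraries up to 3523 CPM, whereas Ddx4 stays at or under 3.03 CPM there.

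Zar1 had the largest ratio of group sums over all libraries. Control granulosa cells ran from 0 to 296 CPM with a median of 33.8 CPM, and doxorubicin granulosa cells from 16.4 to 3523 CPM with a median of 485 CPM. Of the 13 doxorubicin cells 7 lay above the highest control granulosa cell and 3 above the highest control oocyte (974 CPM). The log2 ratio was 3.49 (3.46 to 3.51), an 11.2-fold difference, and 3.04 to 3.87 over leaving out single cells. It was 1.27 in the libraries led by granulosa markers, below Dazl (1.83) and Btg4 (1.69), and 3.89 between the cells' medians, below Btg4 (5.38). At least 5 reads were found in 13 of 13 doxorubicin cells, before and after thinning.

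Zar1 followed the oocyte markers within the doxorubicin granulosa libraries, with a Spearman's rho of 0.97 over 13 libraries and 0.95 without the 2 farthest from the median. It was 0.34 over the 16 control granulosa cells, 0.47 over control oocytes and 0.71 over doxorubicin oocytes. Over the 13 doxorubicin granulosa libraries rho was 0.75 for Lsm14b, 0.55 for Ybx2, 0.45 for Dazl, 0.35 for Cpeb1 and 0.23 for Btg4. There Zfp36l2 stood at 0.10, Ddx4 at 0.05 and Ddx6 at -0.25. Both measures share a library and its total. Per 1000 oocyte marker counts the median of Zar1 was 43.2 in doxorubicin and 21.2 in control granulosa cells, against 8.37 in control oocytes. The lowest doxorubicin granulosa library, at 27.1, stood above the highest control oocyte, at 18.1. The marker sums differed in make-up: Padi6 held 33.7% of the sum in control oocytes and 21.9% in doxorubicin granulosa cells. The source of Zar1 in granulosa libraries was not tested.

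**Figure D5:**
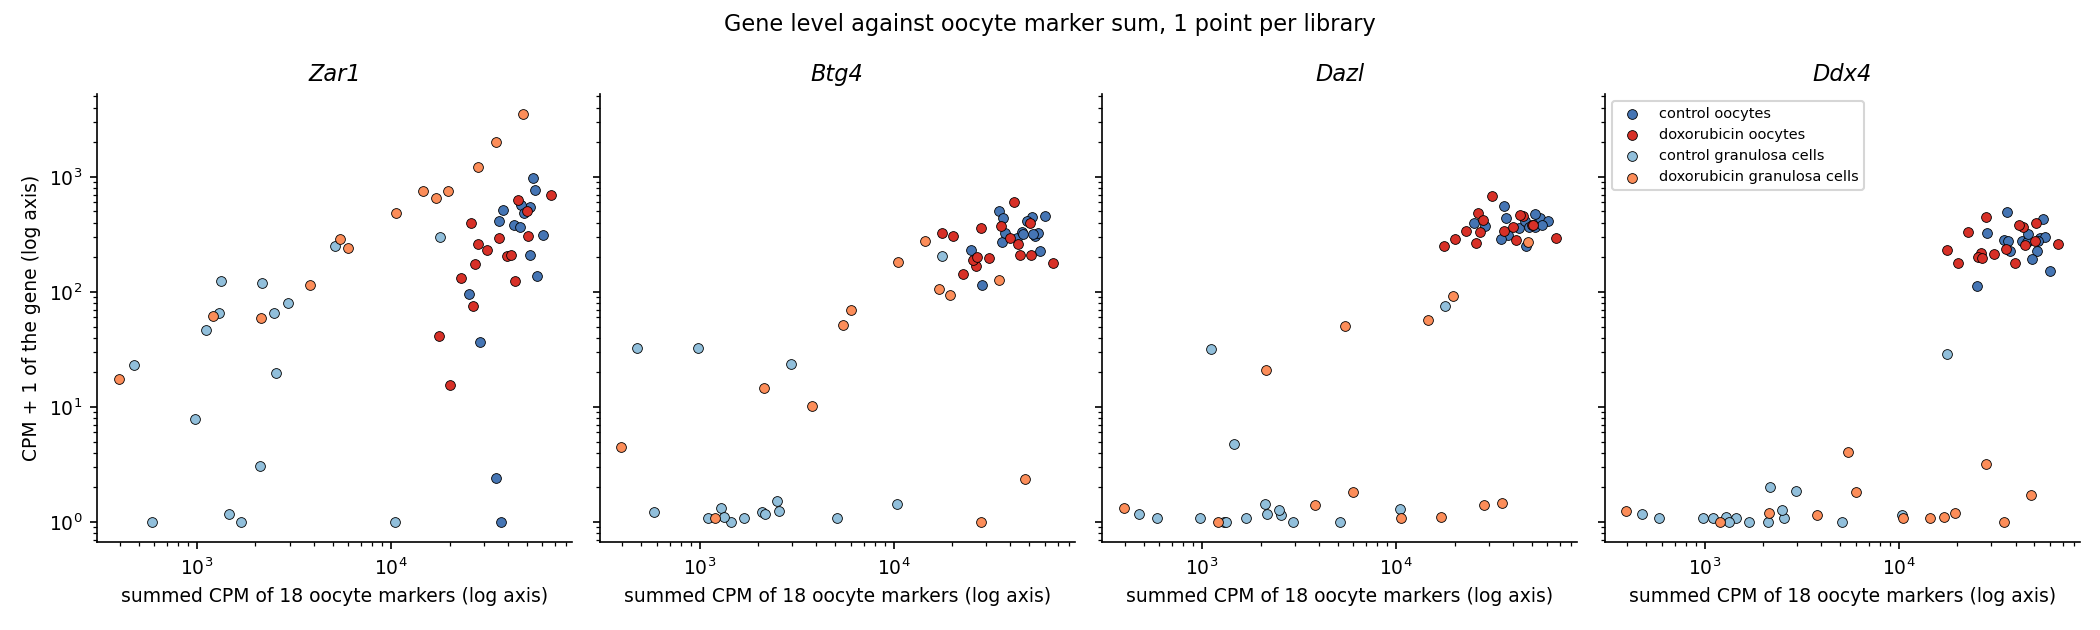
CPM + 1 of Zar1, Btg4, Dazl and Ddx4 against the summed CPM of 18 oocyte markers, both on log axes, 1 point per library. Zar1 climbs along the marker sum in doxorubicin granulosa libraries to 3523 CPM, and Ddx4 stays at or under 3.03 CPM in the same libraries.

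Ddx4 was scarce in both groups. It ran from 0 to 3.03 CPM in doxorubicin granulosa cells with a median of 0.208 CPM, and from 0 to 28.0 CPM in control granulosa cells. Both group levels, 0.664 and 1.93 CPM, were under 5 CPM, and control library 8 held 91.4% of the control counts. The ratio of -1.54 on the log2 scale turned to 1.90 without that library, and no direction is read from it. Per 1000 oocyte marker counts the median was 0.02 in doxorubicin and 0.07 in control granulosa cells, against 5.97 in control oocytes. At least 5 reads were found in 4 of 13 doxorubicin cells, or 1 after thinning.

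The contrast was sharpest in doxorubicin granulosa libraries 1, 4 and 6, whose oocyte marker sum was at or above that of the lowest control oocyte, 25190 CPM. There Zar1 was 1218 to 3523 CPM, in all 3 above the highest control oocyte. Ddx4 was 0 to 2.23 CPM, Cpeb1 1.48 to 3.05 CPM and Lsm14b 0.311 to 5.19 CPM, in all 3 below the lowest control oocyte (112, 316 and 10.8 CPM). Dazl was 0.412 to 271 CPM, below the lowest control oocyte in 2 of 3, and so was Btg4 at 0 to 127 CPM. Ybx2 was 4.53 to 154 CPM, below the lowest control oocyte in 2 of 3 and above the highest in library 1. Ddx6 was 0.277 to 593 CPM, below the lowest control oocyte in 2 of 3 and above the highest in library 4. Zfp36l2 was 16.1 to 55.1 CPM, above the highest control oocyte in 2 of 3. These libraries were thus high in oocyte markers and in Zar1 without the levels of Ddx4 and Cpeb1 that every oocyte had. Low values were not limited to germ cell genes, as libraries 1 and 6 held 5 and 3 reads of the broadly expressed Ddx6. Libraries 1, 4 and 6 had 8504, 7788 and 9081 genes with a count, beside a median of 13674.5 in control oocytes. The cause was not tested.

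Single libraries moved the ratios of the other higher genes. Dazl ran from 0 to 73.7 CPM in control and from 0 to 271 CPM in doxorubicin granulosa cells, with medians of 0.168 and 0.462 CPM. Over the group sums the log2 ratio was 2.26 (2.18 to 2.35), but 1.30 without doxorubicin library 1, 3.65 without control library 8 and 1.83 in the libraries led by granulosa markers. The medians of the cells were 0.32 apart on the log2(CPM + 1) scale, under 2-fold. At least 5 reads were found in 4 of 16 control and 9 of 13 doxorubicin cells, or 3 and 5 after thinning.

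Ybx2 had medians of 0.590 and 8.16 CPM, with maxima of 43.5 and 154 CPM, and 2 doxorubicin cells stood above the highest control. The log2 ratio of 2.09 (1.99 to 2.19) was 1.46 without doxorubicin library 1, 2.81 without control library 9 and -0.74 in the libraries led by granulosa markers. Cpeb1 had medians of 0.324 and 1.48 CPM, with maxima of 54.3 and 145 CPM. Its log2 ratio of 2.01 (1.90 to 2.11) was 1.37 without doxorubicin library 2, 1.02 without doxorubicin library 7, 3.28 without control library 11 and -2.53 in the libraries led by granulosa markers. Most cells of either group held little Cpeb1, and after thinning 3 of 16 control and 2 of 13 doxorubicin cells had at least 5 reads.

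Lsm14b had medians of 0 and 0.278 CPM, with maxima of 24.9 and 154 CPM. Its log2 ratio of 3.08 (2.92 to 3.25) was 7.04 without control library 6 and 1.07, with both groups under 5 CPM, without doxorubicin library 9. In the libraries led by granulosa markers it was -5.92, with both groups under 5 CPM. There no kept doxorubicin library held a Lsm14b read, so that group was set to the floor of 3 counts. On the control side library 6 held 332 counts and the next highest, library 7, 12. No direction is read from this value. Btg4 had medians of 0.235 and 50.5 CPM, with maxima of 205 and 278 CPM, and 9 of 13 doxorubicin and 4 of 16 control cells had at least 5 reads after thinning, the same counts as for Ybx2. Its log2 ratio of 1.96 (1.91 to 2.02) was 3.62 without control library 8 and 1.69 in the libraries led by granulosa markers. Between the cells' medians it was 5.38. Per 1000 oocyte marker counts its doxorubicin median was 6.11, against 7.31 in control oocytes. Patl2 had no read in any of the 13 doxorubicin granulosa cells either. There the floor of 3 counts is 0.0210 CPM and the exact Poisson interval reached 0.0258 CPM.

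The broadly expressed pair had ratios below 0 over the group sums, but that of Ddx6 changed sign between settings. Ddx6 ran from 0 to 548 CPM in control and from 0.277 to 593 CPM in doxorubicin granulosa cells, with medians of 65.8 and 97.7 CPM. The groups overlapped throughout. Its log2 ratio of -0.21 (-0.24 to -0.18) changed sign without control library 8 (0.12) or 13 (0.15), was -0.89 without doxorubicin library 4, and was 0.56 between the cells' medians. Zfp36l2 ran from 0 to 138 CPM and from 0.104 to 55.1 CPM, with medians of 25.5 and 22.9 CPM, and its log2 ratio was -0.56 (-0.62 to -0.51). In the libraries led by granulosa markers Ddx6 stood at -0.01 and Zfp36l2 at -0.995. Neither passed 2-fold.

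The lists in granulosa libraries are to be read beside 20.6% of genes higher and 20% lower. Of 13 tested polyadenylation genes 3 were at least 2-fold higher and 4 lower, with a median of -0.47. Tent5b stood at 9.02 and Parn at 1.78. Cpeb3, which had no read in control granulosa cells, stood at 9.81 against the floor of 3 counts. Sympk and Fip1l1, scaffold and subunit of the cleavage and polyadenylation complex, stood at -1.93 and -1.76, Cpeb2 at -1.58 and Cpsf4 at -1.13. Of 19 deadenylation genes 3 were higher (Cnot11 at 1.29, Pan3 at 1.27, Cnot6 at 1.12) and 4 lower (Cnot9 at -3.87, Tob2 at -2.16, Pan2 at -1.20, Tnks1bp1 at -1.19). Of 16 decapping genes only Dcp1a passed, at 2.02. Of 12 cap and poly(A) binding genes 3 were higher and 0 lower, with Pabpc4 at 1.82 and Paip2b at 1.79. Pabpn1l, a poly(A)-binding protein of oocytes and early embryos without a control read, stood at 10.86 against the floor of 3 counts.

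Of 29 other RNA-binding protein genes 7 were higher and 3 lower. Igf2bp3 stood at 3.19 and Nanos1 at 2.23. Samd4 and Nanos2, without a control read, stood at 10.54 and 8.80 against the floor of 3 counts. Ythdc2 stood at -1.59, Ythdf1 at -1.35 and Zfp36 at -1.01. Of the 12 stored messages 5 were higher and 0 lower, with a median of 0.46. Mos stood at 2.53, with cell medians of 0.0376 and 118 CPM, and Plat, the tissue plasminogen activator, at 1.94, with cell medians of 0.196 and 160 CPM. Wee2 at 8.68 and Tex19.1 at 11.27 (9.73 to 13.55) rest again on 8 and 3 control counts. Mos and Plat, like Zar1 and Btg4, thus had cell medians well above 0 after doxorubicin, whereas those of Wee2, Tex19.1, Igf2bp3 and Nanos1 were 0 to 0.168 CPM. The doxorubicin cell medians of Cpeb3, Samd4 and Nanos2 were 0, that of Pabpn1l 0.0841 and that of Tent5b 0.162 CPM, so their ratios rest on a minority of libraries. The part of the oocyte markers in these list counts was not tested.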

How the data were processed

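Each cell's mRNA was reverse transcribed and amplified with an ultra-low-input SMART-seq kit and tagged with Nextera XT, per the labels' protocols, and sequenced as paired ends. Estimated counts of each gene in each cell were deposited by the authors, and 32.5% of the nonzero values were not whole (tolerance 1e-09). Partek, Bowtie2, HISAT2, DESeq2 and mm10 are named in the submitters' processing notes without a role or version; the counting method, annotation, strand setting and filters are not given in the sources used here. Full-length amplification without molecular identifiers leaves amplified duplicates in the counts. The table had 61 cell columns, all used and matched by name. Symbols turned into dates filled 22 entries with 0.144% of counts, kept in totals only. Doxorubicin oocyte 4, whose raw data were lost per the series text, was kept.

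Counts were rounded, summed per group and divided by the summed total to give CPM, with a group under 3 counts set to 3. The log2 ratio has an exact conditional binomial 95% interval, group CPM an exact Poisson interval and shares of cells a Clopper-Pearson interval. A ratio was read where either group reached 5 CPM and counted at 2-fold. All cells were also thinned to 1000000 counts. The ratio calculation was tested on simulated data. Alternatives were equal weight per cell, cell medians of log2(CPM + 1), TMM factors of edgeR 4.0.16 and size factors of DESeq2 1.42.0 on group sums (no test was run with either), no filter or 50 CPM, leaving out libraries by marker sums, and leaving out each cell. No doublet caller was run on these 61 cells. Named were all 10 genes, per list up to 4 past 2-fold in each direction, and the 3 nearest genes by correlation; the genes and lists were chosen with earlier results of these data known. Software was R 4.3.3 and Python 3.11.15 (pandas 2.3.3, numpy 2.4.6, matplotlib 3.10.9, scipy 1.17.1).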

Additional observations from a re-analysis of the deposited data

Results flagged for a closer look

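Between doxorubicin and control cells, 4 genes had log2 ratios of opposite sign in oocytes and granulosa cells. The counting interval of each ratio excluded 0, and each kept its sign whichever single cell was left out. Ybx2 was -0.18 in oocytes and 2.09 in granulosa cells. Zar1 was -0.48 in oocytes and 3.49 in granulosa cells. Cpeb1 was -0.17 in oocytes and 2.01 in granulosa cells. Btg4 was -0.32 in oocytes and 1.96 in granulosa cells. With 1 sample a group the difference between cell types was not tested. All 4 oocyte values are under 2-fold. Without the oocytes that reached 200 CPM of granulosa markers they were -0.12 for Ybx2, -0.41 for Zar1, -0.04 for Cpeb1 and -0.40 for Btg4. In granulosa libraries led by granulosa markers, Ybx2 was -0.74 and Cpeb1 -2.53, the same sign as in oocytes. There Zar1 was 1.27 and Btg4 1.69, still opposite in sign to oocytes and past 2-fold. Of the doxorubicin libraries kept, library 8 held 3778 Zar1 and 666 Btg4 counts, against 1411 and 132 in the next highest. These values were not checked by leaving out single libraries.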

How the results depend on the processing

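No paired analysis was possible because the results come from no test and replicate numbers only name libraries. In oocytes 0 genes passed 2-fold under any alternative run. The oocyte median of -0.02 became -0.0472 with equal weight per cell, -0.15 with cell medians, -0.00244 without a filter, -0.17 at 50 CPM and -0.0407 over 11 doxorubicin and 10 control oocytes with under 200 CPM of granulosa markers; leaving out single cells gave -0.0930 to 0.0178. In granulosa libraries the count of 6 became 3 and the median of 2.05 became 0.74 with cell medians, and the count became 2 at 50 CPM. Without libraries led by oocyte markers the median was -0.00915, Ybx2 -0.74 and Cpeb1 -2.53. Lsm14b, under 5 CPM in both groups, was -5.92 with the doxorubicin group set to the floor of 3 counts. Dazl (1.83), Btg4 (1.69) and Zar1 (1.27) were past 2-fold higher, and 4 genes were past 2-fold in either direction. The share over all genes was not computed there. Of the kept doxorubicin libraries, library 8 held the most Dazl, Btg4 and Zar1 counts (650, 666 and 3778, next 194, 132 and 1411). No single library was left out within this subset, and the cause was not tested beyond the fewer libraries kept. Leaving out single cells gave medians of 1.76 to 2.51 and counts of 5 to 6. Between control oocytes and granulosa cells the median of 4.05 became 5.65 with cell medians, 4.22 at 50 CPM, 3.81 without oocytes of 200 CPM or more of granulosa markers and 3.36 without libraries led by oocyte markers; leaving out single cells gave 3.91 to 4.13. Patl2 in all groups and Ddx4 in granulosa cells were under 5 CPM. Oocytes with Patl2 held 38 to 114 reads in control and 36 to 188 in doxorubicin cells, and the other oocytes held 0. After thinning, the cells with at least 5 reads went from 7 to 6 and from 5 to 3. The part of depth in these values was not tested.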
